A study of Rattus norvegicus with 16 samples.

Results

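Levels of 42 genes for lysosomal enzymes, lysosomal membrane proteins, proton pump subunits and the regulator Tfeb were followed in rat microglia after brain irradiation and a systemic inflammatory challenge. The genes were chosen by symbol from a list, without a rule on their measured values but with earlier results of these data known. All 42 were present among the 21842 symbols (30560 gene identifiers) of the count matrix. By role the list holds 13 proteases, 10 glycosidases and sulfatases, 7 other lumenal proteins, 7 membrane proteins, 4 pump subunits and 1 regulator.

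RNA was sequenced in bulk from microglia, the resident macrophages of the brain, of male Wistar (Hsd/Cpb:WU) rats. All rats were either exposed to 14 Gy of X-rays or sham-irradiated, and 6 weeks later they were injected intraperitoneally with phosphate-buffered saline (PBS) or with lipopolysaccharide (LPS), a bacterial cell wall component. The 4 groups were therefore sham PBS, sham LPS, irradiated PBS and irradiated LPS, with 4 samples each and no genetic modification named. Brains were dissociated mechanically in the cold, and live CD11b-high, CD45-intermediate cells were sorted. The gate is set on surface markers, so that other myeloid cells with a similar phenotype can enter it. The labels do not say which animal gave which sample, and p-values therefore measure the spread between these samples. In bulk RNA, fewer cells of a type and less RNA per cell cannot be told apart.

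The lysosome is the acidic compartment in which cells break down proteins, glycans, lipids and nucleic acids taken up from outside or delivered by autophagy. A vacuolar proton pump acidifies the lumen, soluble hydrolases degrade the cargo, and membrane proteins protect the limiting membrane and export the products. TFEB and related factors of the MiT family activate many lysosomal genes through E-box elements in their promoters, and in microglia lysosomes process phagocytosed debris, myelin and synapses.

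The E-box core is the sequence CACGTG, which reads the same on both strands. RefSeq promoter windows of build GRCr8, from 250 bases before to 50 bases after the start of the gene, were matched by symbol for 36 of the 42 genes (37 windows, because Acp5 has more than 1). The core was found in 10 of the 37 windows (27%), in 6.42% of all 33469 windows of the table and in 9.07% of the 10763 windows of genes tested here. The longer form TCACGTG, searched on both strands and always overlapping the core, was found in 18.9% of the members' windows, 3.2% of all windows and 5.27% of those of genes tested. Windows with the core belonged to Lamp1, Ctsd, Ctsf, Gaa, Glb1, Idua, Cd63, Mcoln1, Tmem175 and Atp6v0d1. A match describes the letters of the window and is not evidence of a bound site.

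The 250 bases before the start are shown 5′ to 3′ on the strand of the gene for 4 genes that differ in their calls or their number of cores, with the core in capitals. Lamp1 (chr16:83075064-83075313, minus strand) was the only member called for a difference in LPS response between irradiated and sham rats, and its window holds 5 cores. Ctsd (chr1:206968822-206969071, minus strand) fell after irradiation and has 2 cores. Ctss (chr2:185775146-185775395, plus strand) fell after irradiation and has 0 cores, and Neu1 (chr20:3906384-3906633, minus strand), which rose in all 4 pairwise comparisons, has 0 cores too.
Lamp1: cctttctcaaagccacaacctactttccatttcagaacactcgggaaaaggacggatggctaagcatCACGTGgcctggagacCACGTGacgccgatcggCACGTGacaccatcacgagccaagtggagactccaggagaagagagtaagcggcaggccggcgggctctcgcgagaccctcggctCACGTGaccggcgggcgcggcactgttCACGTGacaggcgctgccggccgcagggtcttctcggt
Ctsd: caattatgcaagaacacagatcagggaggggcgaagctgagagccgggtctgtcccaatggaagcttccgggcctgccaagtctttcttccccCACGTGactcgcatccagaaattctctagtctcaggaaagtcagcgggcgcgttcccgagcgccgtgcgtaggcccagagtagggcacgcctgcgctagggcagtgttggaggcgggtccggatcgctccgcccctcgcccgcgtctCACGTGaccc
Ctss: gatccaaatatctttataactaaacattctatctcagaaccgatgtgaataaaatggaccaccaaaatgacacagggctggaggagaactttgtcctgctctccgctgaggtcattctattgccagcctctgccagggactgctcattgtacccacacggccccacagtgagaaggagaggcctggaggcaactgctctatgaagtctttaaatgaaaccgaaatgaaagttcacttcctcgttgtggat
Neu1: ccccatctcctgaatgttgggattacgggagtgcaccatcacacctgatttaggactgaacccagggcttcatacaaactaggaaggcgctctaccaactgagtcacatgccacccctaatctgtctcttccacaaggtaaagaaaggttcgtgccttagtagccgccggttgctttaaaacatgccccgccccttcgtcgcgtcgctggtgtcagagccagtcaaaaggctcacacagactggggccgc

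Windows with the core were found among genes of each irradiation call given below. Of the members' windows, 4 of the 14 from genes that fell after irradiation with PBS held it (28.6%), as did 4 of the 17 from genes that were not called (23.5%) and 1 of the 5 from genes that rose (20%). With LPS in irradiated rats the core was in 5 of 10 windows of genes that fell (50%). It was in 3 of 21 from genes not called (14.3%) and 1 of 5 from genes that rose (20%). In the same order, LPS in sham rats gave 33.3%, 21.7% and 25%, and irradiation with LPS gave 30.8%, 25% and 14.3%. These shares rest on few windows and were not tested.

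Total counts per library (in units of 1e6) ranged from 16.8 to 22.5 in sham PBS, 16.6 to 19.8 in sham LPS, 14.3 to 25 in irradiated PBS and 19 to 62.7 in irradiated LPS. After a filter on low counts 13608 genes were tested, among them 40 of the 42 members. The remaining 2 were Mcoln1, which encodes a lysosomal calcium channel and had 41 counts in all 16 libraries together (0 to 7 per library, 0 in 2 libraries), and Atp6v0d2, a pump subunit known from osteoclasts, which had 0 counts in every library. A count of 0 allows up to 3 counts, or 0.0478 CPM (counts scaled to a library of 1e6) in the deepest and 0.21 CPM in the shallowest library. In RefSeq, the spans of 11 of the 42 genes, introns included, overlap that of another protein-coding gene (Ctsa, Ctsd, Ctsz, Hexa, Glb1, Idua, Psap, Acp2, Cd63, Npc1 and Atp6v1h). Overlap of exons was not examined and the strand of counting is not stated. Whether such partners affect the counts is therefore not known. The tested members had at least 146 counts in each library (the lowest was Tfeb). In sham rats given PBS the 42 genes took 9.03% ± 0.104 of all counts (SD, n = 4). In the other groups they took 8.59% ± 0.465 (sham LPS), 7.53% ± 0.196 (irradiated PBS) and 7.04% ± 0.605 (irradiated LPS).

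Markers of the sorted cells and of other cells moved with the groups that are compared below. Summed microglial markers (9 genes in the files, P2ry12, Tmem119 and Cx3cr1 among them) ranged from 43792 to 47080 CPM in sham PBS, 34589 to 38650 in sham LPS, 19944 to 25275 in irradiated PBS and 14102 to 18385 in irradiated LPS. Of the 8 that were tested, 7 fell after irradiation with PBS and 7 with LPS, while Siglech, which was not tested, was at 0 in sham LPS. Border-associated macrophage markers (10 genes) summed to 381 to 442, 472 to 1036, 1265 to 1559 and 3125 to 4283 CPM in the same order, and 9 of 10 rose after irradiation with PBS. Monocyte markers (9 genes) summed to 149 to 233, 291 to 399, 422 to 512 and 596 to 969 CPM, and T and NK cell markers (10 genes) to 13.5 to 22.3, 16.9 to 149, 90.6 to 178 and 429 to 856. Endothelial and mural markers (8 genes) summed to 337 to 419, 310 to 345, 148 to 195 and 130 to 212 CPM. Neutrophil markers summed to 322 to 404, 243 to 295 and 230 to 303 CPM in the first 3 groups and 364 to 585 in 3 libraries of irradiated LPS, where 8 of 9 tested rose against irradiated PBS and 8 against sham LPS. They reached 2289 CPM in irradiated LPS replicate 1, where neuronal markers also reached 97.1 CPM. Mitochondrial genes took 0.611 to 0.689% of counts in sham PBS and 0.865 to 1.32% in irradiated PBS. The part of these markers in the changes of the lysosomal genes was not tested.

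Irradiation lowered many of the lysosomal proteases and some of the membrane proteins, and raised a few genes. Among rats given PBS, 15 of the 40 tested members fell and 4 rose, while 21.4% of all 13608 genes were called (9.91% lower and 11.5% higher). A gene was called where the edgeR quasi-likelihood test gave a Benjamini-Hochberg adjusted p under 0.05 over all genes tested. The CPM of the groups did not overlap for 23 members (17 lower, 6 higher), against 26.7% of all genes. The median log2 fold change was -0.14 over the members and 0.00 over all genes. With library totals in place of TMM scaling the all-gene median moved by 0.16 to 0.15, the members' median became 0.01, and 10 members were called lower and 9 higher. Such a shift applies to members and all genes alike. Without replicate 1 of both irradiated groups 13 members fell and 2 rose. In both of these libraries neuronal markers were higher than in any other library. Their oligodendrocyte markers were high against the other irradiated libraries but within the range of the sham libraries.

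Among rats given LPS, irradiation lowered 14 and raised 6 members, against 27.7% of all genes called (12.6% lower, 15.1% higher), with a median of -0.14 over the members and 0.01 over all genes. Groups did not overlap for 19 members (14 lower, 5 higher), against 26.7% of all genes. Without replicate 1 of both irradiated groups 12 fell and 7 rose, and with library totals as scaling 12 fell and 7 rose. The PBS and LPS comparisons share no samples but 1 estimate of the spread. Of the 15 members lower with PBS, 13 (86.7%) were lower with LPS too, and these made up 92.9% of the 14 lower with LPS. For all genes tested these shares were 67% and 52.6%. All 4 higher with PBS were higher with LPS as well, 66.7% of the 6. Across the 40 members the fold changes correlated with r = 0.875 (Spearman 0.847), and across all genes with r = 0.706 (0.615). These describe genes, which are not independent replicates.

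**Figure D1:**
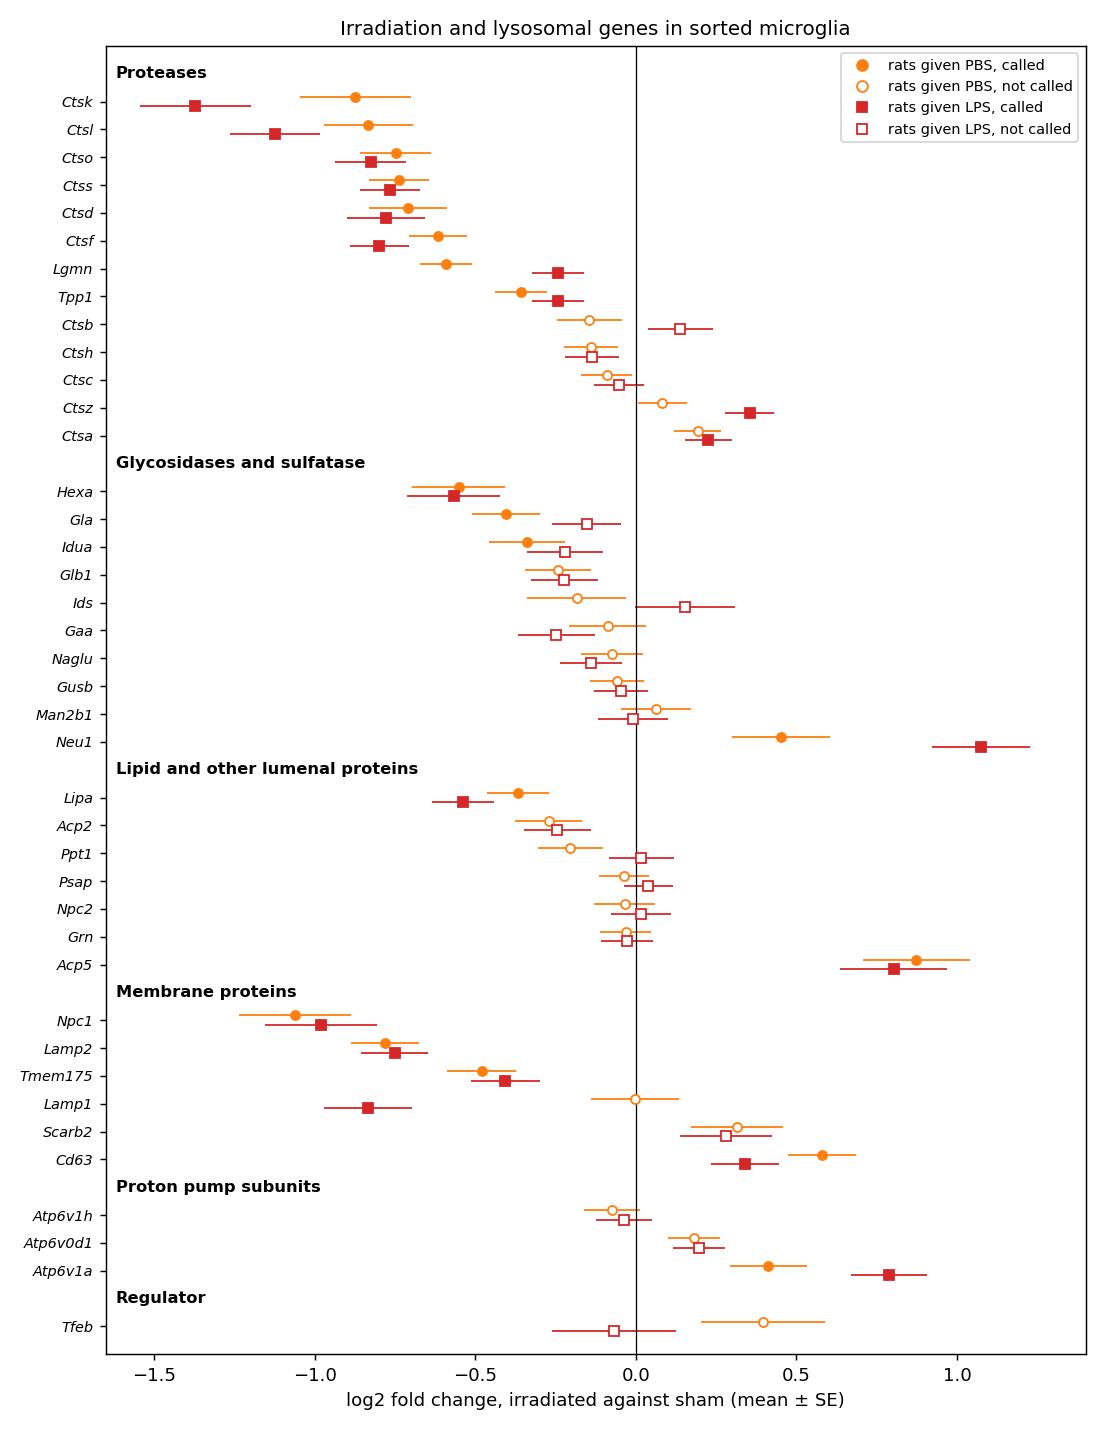
Log2 fold change of irradiated against sham rats for the 40 tested members, grouped by role (points, mean; bars, SE; n = 4 per group; filled, called by edgeR). The proteases range from -1.37 (Ctsk with LPS) to 0.35 (Ctsz with LPS), and Neu1, Acp5, Cd63 and Atp6v1a lie above 0 in both comparisons.

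Of the 15 members that fell after irradiation with PBS, 8 were proteases. That is 8 of 13 proteases, with 0 higher (median log2 fold change -0.59), and with LPS 8 of 13 fell and 2 rose (median -0.24). Called in either direction were 61.5% with PBS and 76.9% with LPS, against 21.4% and 27.7% of all genes. Summed protease CPM was 69428 ± 1072 in sham PBS, 68737 ± 5362 in sham LPS, 48564 ± 2775 in irradiated PBS and 50293 ± 5983 in irradiated LPS (SD, n = 4). Ctss alone held much of this sum, with means of 36157, 39365, 21673 and 23140 CPM in the same order.

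Cathepsin S (Ctss), a cysteine protease that stays active at neutral pH and trims the invariant chain of class II molecules, had 35612, 35108, 36480 and 37429 CPM in sham PBS and 19491, 21186, 23048 and 22968 in irradiated PBS. With LPS it had 39778, 34417, 43908 and 39357 CPM in sham rats and 18993, 25094, 25618 and 22856 in irradiated rats. Every irradiated library lay below every sham library, whichever the injection. Ctss fell by 0.74 ± 0.09 on the log2 scale with PBS (1.67-fold lower, adjusted p = 1.56e-05) and by 0.77 ± 0.09 with LPS (adjusted p = 6.51e-06).

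Cathepsin L (Ctsl), another cysteine endopeptidase, measured 1758, 1793, 2162 and 1688 CPM in sham PBS, 1642, 1787, 1846 and 1808 in sham LPS, 763, 930, 1282 and 1177 in irradiated PBS and 661, 877, 939 and 775 in irradiated LPS. It fell by 0.83 ± 0.14 with PBS (adjusted p = 0.000262) and by 1.12 ± 0.14 with LPS (2.18-fold lower, adjusted p = 8.07e-06). The irradiated libraries again lay below all sham libraries. Cathepsin D (Ctsd), the main aspartic protease of the compartment, measured 3340, 3174, 2946 and 3109 CPM in sham PBS and 1838, 2029, 2133 and 1685 in irradiated PBS, a drop of 1.64-fold (log2 -0.71 ± 0.12, adjusted p = 0.000351). With LPS it went from 2546, 2877, 2974 and 2368 CPM in sham to 1170, 1665, 1944 and 1501 in irradiated rats (log2 -0.78 ± 0.12, adjusted p = 9.9e-05). For Ctsd, too, the groups did not overlap.

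Cathepsin K (Ctsk), a collagen-degrading protease best known from osteoclasts, showed the largest fold decrease among the proteases in both comparisons. It measured 24.5, 23.4, 28.3 and 25.6 CPM in sham PBS, 33.8, 26.6, 48.3 and 39.7 in sham LPS, 13, 11.7, 18.1 and 12.8 in irradiated PBS and 12.9, 13.3, 16.2 and 15 in irradiated LPS. It fell by 0.87 ± 0.17 with PBS (adjusted p = 0.00124) and by 1.37 ± 0.17 with LPS (2.59-fold lower, adjusted p = 8.89e-06), and no irradiated library reached a sham library. Cathepsin O (Ctso), a cysteine cathepsin, measured 483, 413, 472 and 454 CPM in sham PBS and 242, 280, 298 and 265 in irradiated PBS, and 363, 357, 359 and 406 in sham LPS and 169, 238, 248 and 183 in irradiated LPS. It fell by 0.75 ± 0.11 and 0.83 ± 0.11 (adjusted p = 8.04e-05 and 1.85e-05), with every irradiated library below every sham library.

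Cathepsin F (Ctsf), a cysteine cathepsin, measured 825, 824, 904 and 842 CPM in sham PBS and 506, 554, 609 and 547 in irradiated PBS, and 741, 716, 759 and 826 in sham LPS and 357, 472, 490 and 429 in irradiated LPS. It fell by 0.62 ± 0.09 with PBS and by 0.80 ± 0.09 with LPS (adjusted p = 7.57e-05 and 2.95e-06), again without overlap. Legumain (Lgmn), the asparaginyl endopeptidase that processes several cathepsins, fell by 0.59 ± 0.08 with PBS (8198, 7886, 8602 and 7617 CPM in sham against 4766, 5470, 5768 and 5457 in irradiated rats, adjusted p = 3.5e-05). With LPS its fall was 0.24 ± 0.08 (adjusted p = 0.0308), and that call was lost without sham LPS replicate 3 (adjusted p = 0.117), irradiated LPS replicate 1 (0.0891) or irradiated LPS replicate 4 (0.0911). Library totals as scaling lost it too (adjusted p = 0.0572). Tripeptidyl peptidase (Tpp1), whose loss causes a neuronal ceroid lipofuscinosis, fell by 0.36 ± 0.08 with PBS (adjusted p = 0.00359) and by 0.24 ± 0.08 with LPS (adjusted p = 0.032). The LPS call of Tpp1 was lost without sham LPS replicates 1, 3 or 4 or irradiated LPS replicates 1 or 4, singly (adjusted p = 0.0508 to 0.113). With library totals as scaling its PBS call (adjusted p = 0.0747) and its LPS call (0.118) were both lost.

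Several proteases were not called after irradiation. Cathepsin B (Ctsb) measured 9344, 10489, 9763 and 9071 CPM in sham PBS, 9749, 8263, 9635 and 8877 in sham LPS, 8710, 9425, 9104 and 7715 in irradiated PBS and 9014, 11377, 11480 and 8324 in irradiated LPS, so that all groups overlapped. Its log2 differences after irradiation were -0.15 ± 0.10 with PBS and 0.14 ± 0.10 with LPS (adjusted p = 0.35 and 0.355). The aminopeptidase Ctsh (-0.14 ± 0.08 in both, adjusted p = 0.274 and 0.26) and the dipeptidyl peptidase Ctsc (-0.09 ± 0.08 and -0.05 ± 0.08, adjusted p = 0.459 and 0.679) were not called either.

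The carboxypeptidases Ctsa and Ctsz were higher in irradiated rats given LPS. Ctsz measured 1865, 1908, 2163 and 2088 CPM in sham LPS and 2196, 2749, 2614 and 2700 in irradiated LPS, a rise of 0.35 ± 0.08 without overlap (adjusted p = 0.00189), against 0.08 ± 0.08 with PBS (adjusted p = 0.503). Ctsa, which also stabilises the sialidase Neu1 and beta-galactosidase, measured 1717, 1589, 1822 and 1872 CPM in sham LPS and 1926, 2120, 2213 and 1926 in irradiated LPS. Ctsa rose by 0.23 ± 0.07 (adjusted p = 0.0289), and its difference with PBS was 0.19 ± 0.07 (adjusted p = 0.0735). The Ctsa call was lost without sham LPS replicate 1 (adjusted p = 0.0654), sham LPS replicate 2 (0.103), irradiated LPS replicate 2 (0.0623) or irradiated LPS replicate 3 (0.0936).

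**Figure D2:**
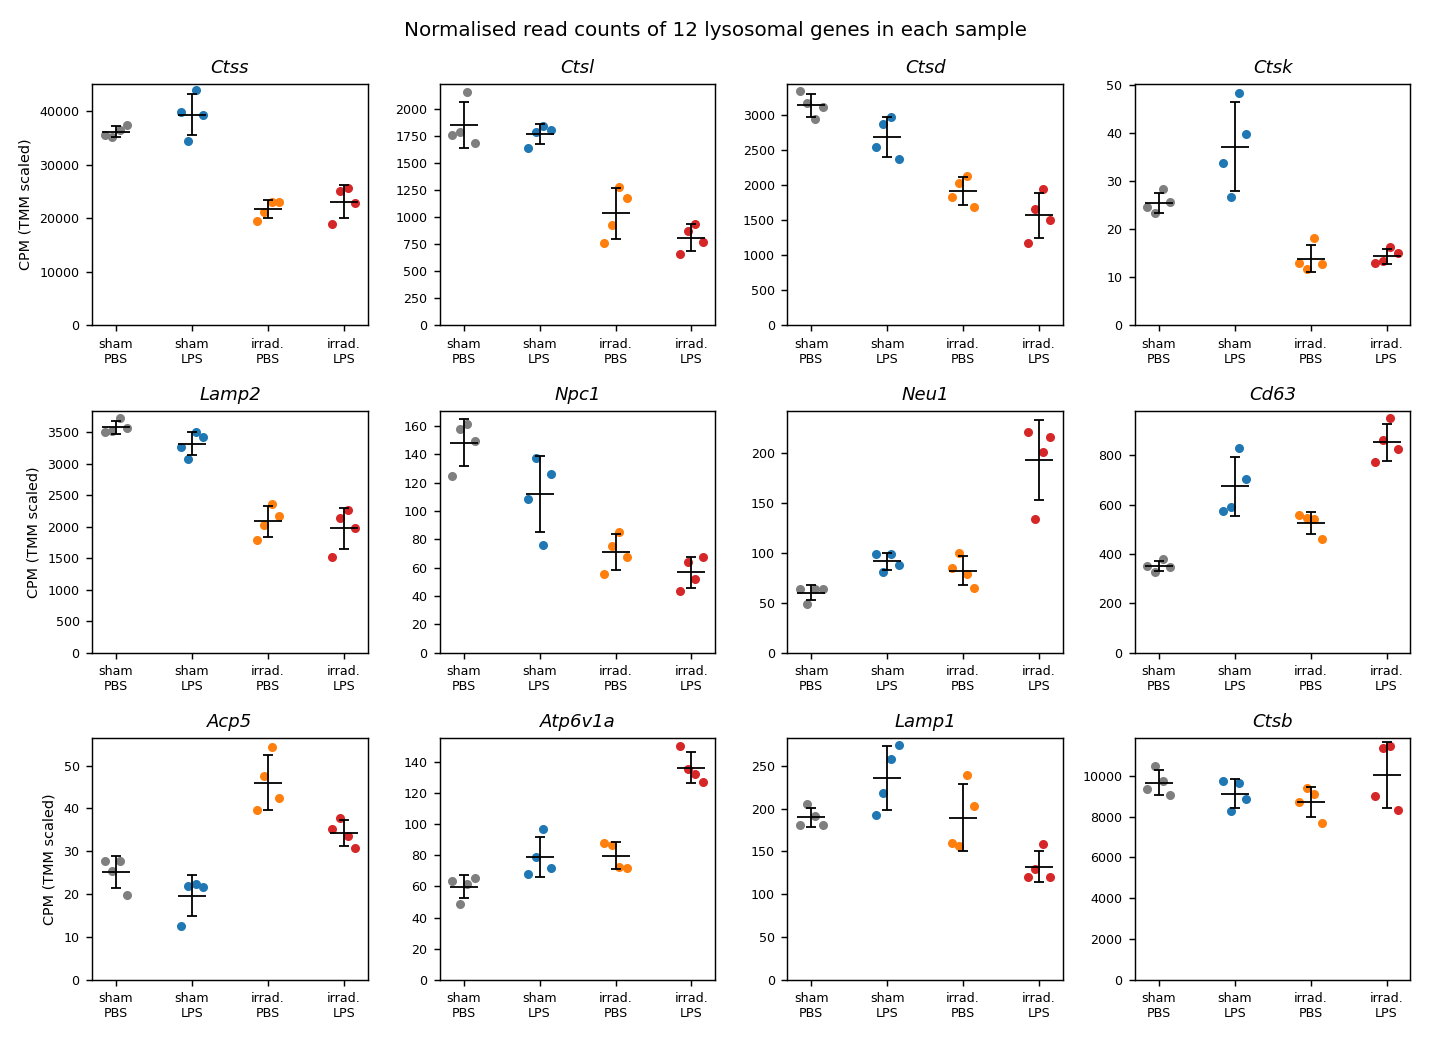
CPM (scaled with TMM factors) of 12 members in each of the 16 samples (points), with the mean and SD of each group (bars, n = 4). Ctss, Ctsl, Ctsd, Ctsk and Lamp2 are lower in every irradiated than in every sham library, Neu1 and Atp6v1a are highest in irradiated rats given LPS, and Ctsb overlaps in all groups.

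Of the 10 glycosidases and sulfatases, 3 fell and 1 rose after irradiation with PBS (median log2 fold change -0.14), and with LPS 1 fell and 1 rose (median -0.15). These are 40% and 20%, next to 21.4% and 27.7% of all genes called. Hexa, the alpha subunit of beta-hexosaminidase, measured 670, 705, 628 and 524 CPM in sham PBS and 343, 449, 497 and 434 in irradiated PBS. It fell by 0.55 ± 0.15 with PBS and by 0.57 ± 0.15 with LPS (adjusted p = 0.0104 and 0.00672), where sham libraries of 475, 543, 316 and 529 CPM overlapped with irradiated ones of 297, 308, 346 and 307. The PBS call of Hexa was lost with library totals as scaling (adjusted p = 0.0542) and without replicate 1 of both irradiated groups (adjusted p = 0.051).

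Alpha-galactosidase A (Gla) fell by 0.40 ± 0.11 with PBS (99.9, 90.8, 97.9 and 85 CPM in sham against 54.5, 77.3, 71.7 and 78.6 in irradiated rats, adjusted p = 0.0106), without overlap. With LPS its difference was -0.15 ± 0.11 (adjusted p = 0.327), and with library totals as scaling the PBS call was lost (adjusted p = 0.0735). The iduronidase Idua, which degrades heparan and dermatan sulfate, fell by 0.34 ± 0.12 with PBS at an adjusted p of 0.0493. That call was lost when any of 10 libraries was left out (sham PBS 2, 3 or 4, sham LPS 1 or 2, irradiated PBS 1, 3 or 4, irradiated LPS 1 or 3; adjusted p = 0.0502 to 0.165). With library totals as scaling it was lost as well (adjusted p = 0.305). RLE factors (adjusted p = 0.0513), the fit without robust estimation (0.0556) and leaving out replicate 1 of both irradiated groups (0.209) lost it too.

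Sialidase Neu1, which removes terminal sialic acids from glycoproteins and gangliosides, went the other way. It measured 63.4, 48.4, 63.3 and 64.1 CPM in sham PBS, 98.3, 80.6, 98.8 and 88.3 in sham LPS, 84.3, 100, 78.5 and 64.7 in irradiated PBS and 221, 134, 201 and 216 in irradiated LPS. Irradiated LPS lay above all other groups, and sham PBS below them. Neu1 rose by 0.45 ± 0.15 after irradiation with PBS (adjusted p = 0.0414) and by 1.08 ± 0.15 with LPS (2.11-fold, adjusted p = 3.39e-05). The PBS call was lost without sham PBS replicates 1, 2, 3 or 4, sham LPS replicate 4 or irradiated PBS replicates 1, 2 or 3, singly (adjusted p = 0.05 to 0.148). It was also lost with no filter on low counts (adjusted p = 0.0555) and without replicate 1 of both irradiated groups (0.0768).

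The acid glucosidase Gaa, the glucuronidase Gusb, beta-galactosidase Glb1, the heparan-degrading Naglu, the iduronate sulfatase Ids and the mannosidase Man2b1 were called in neither irradiation comparison. Their log2 differences ranged from -0.24 (Glb1, adjusted p = 0.113) to 0.06 (Man2b1, adjusted p = 0.74) with PBS and from -0.25 (Gaa, adjusted p = 0.139) to 0.15 (Ids, adjusted p = 0.523) with LPS.

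Of the 7 other lumenal proteins, 1 fell and 1 rose in each irradiation comparison (median log2 fold change -0.04 with PBS and 0.02 with LPS). This share of 28.6% is near that of all genes called (21.4% with PBS and 27.7% with LPS). Lysosomal acid lipase (Lipa), which hydrolyses cholesteryl esters and triglycerides, measured 817, 737, 798 and 734 CPM in sham PBS, 613, 603, 607 and 565 in sham LPS, 528, 578, 685 and 603 in irradiated PBS and 339, 471, 446 and 388 in irradiated LPS. Lipa fell by 0.37 ± 0.10 after irradiation with PBS (adjusted p = 0.0102, lost with library totals as scaling at 0.0857) and by 0.54 ± 0.10 with LPS (adjusted p = 0.000367). The groups did not overlap in either comparison.

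Acp5, the tartrate-resistant acid phosphatase of osteoclasts and activated macrophages, measured 27.6, 25.3, 27.7 and 19.8 CPM in sham PBS, 12.4, 22, 22.5 and 21.7 in sham LPS, 39.6, 47.7, 54.3 and 42.4 in irradiated PBS and 35.2, 37.6, 33.6 and 30.7 in irradiated LPS. It rose by 0.87 ± 0.17 with PBS (1.83-fold, adjusted p = 0.000923) and by 0.80 ± 0.17 with LPS (adjusted p = 0.00138), and every irradiated library exceeded every sham library. The other 5 were called in neither comparison. Prosaposin (Psap), the precursor of the saposin activators, differed by -0.04 ± 0.08 and 0.04 ± 0.08 (adjusted p = 0.788 and 0.763), and progranulin (Grn) by -0.03 ± 0.08 in both (adjusted p = 0.83 and 0.849). The sterol carrier Npc2 differed by -0.04 ± 0.09 and 0.02 ± 0.09 (adjusted p = 0.84 and 0.929), the thioesterase Ppt1 by -0.20 ± 0.10 and 0.02 ± 0.10 (adjusted p = 0.175 and 0.927), and the acid phosphatase Acp2 by -0.27 ± 0.10 and -0.24 ± 0.10 (adjusted p = 0.0754 and 0.0953).

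Membrane proteins split in direction. Of the 6 tested, 3 fell and 1 rose after irradiation with PBS (median -0.24), and 4 fell and 1 rose with LPS (median -0.58). The shares called were 66.7% and 83.3%, against 21.4% and 27.7% of all genes. Npc1, which exports cholesterol from the lysosome, had the steepest fall of all members with PBS, from 125, 158, 161 and 149 CPM in sham to 55.6, 75.5, 85 and 67.7 in irradiated rats (log2 -1.06 ± 0.18, 2.09-fold lower, adjusted p = 0.000262). With LPS it fell by 0.98 ± 0.18, from 108, 137, 76.1 and 126 to 43.4, 63.7, 51.8 and 67.4 CPM (adjusted p = 0.000367). Irradiated libraries lay below sham libraries in both comparisons.

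Lamp2, a structural glycoprotein of the lysosomal membrane with an isoform needed for chaperone-mediated autophagy, measured 3503, 3517, 3732 and 3566 CPM in sham PBS, 3275, 3079, 3502 and 3429 in sham LPS, 1782, 2021, 2357 and 2177 in irradiated PBS and 1519, 2140, 2259 and 1975 in irradiated LPS. It fell by 0.78 ± 0.11 with PBS and by 0.75 ± 0.11 with LPS (adjusted p = 3.04e-05 and 2.92e-05), and no irradiated library reached a sham library. Lamp1, its close relative, measured 181, 205, 192 and 181 CPM in sham PBS and 160, 156, 240 and 203 in irradiated PBS. Its log2 difference with PBS was -0.00 ± 0.14 (adjusted p = 0.996). The cation channel Tmem175 fell by 0.48 ± 0.11 with PBS and by 0.41 ± 0.11 with LPS (adjusted p = 0.00327 and 0.008), without overlap.

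The tetraspanin Cd63, a membrane protein of late endosomes and secreted vesicles, rose. It measured 353, 328, 379 and 349 CPM in sham PBS, 574, 590, 829 and 705 in sham LPS, 557, 547, 541 and 460 in irradiated PBS and 775, 863, 950 and 825 in irradiated LPS. The rise was 0.58 ± 0.11 with PBS (adjusted p = 0.000635), without overlap, and 0.34 ± 0.11 with LPS (adjusted p = 0.0227), where the groups overlapped. The LPS call was lost without sham LPS replicate 1 (adjusted p = 0.0811), sham LPS replicate 2 (0.0809) or irradiated LPS replicate 3 (0.0737). Scarb2, the sorting receptor of glucocerebrosidase, differed by 0.32 ± 0.14 and 0.28 ± 0.14 (adjusted p = 0.134 and 0.164).

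Of the 3 pump subunits tested, Atp6v1a rose in both irradiation comparisons and the other 2 were not called. This is 33.3% in each, against 21.4% (PBS) and 27.7% (LPS) of all genes, and rests on few genes. Atp6v1a, the catalytic subunit of the cytosolic sector, measured 63.4, 48.8, 61.6 and 65.6 CPM in sham PBS, 67.8, 78.9, 96.6 and 72 in sham LPS, 88.1, 86.5, 72.5 and 71.8 in irradiated PBS and 150, 135, 132 and 127 in irradiated LPS. It rose by 0.41 ± 0.12 with PBS (adjusted p = 0.018) and by 0.79 ± 0.12 with LPS (adjusted p = 6.51e-05), without overlap in either. The PBS call was lost without sham PBS replicate 2 (adjusted p = 0.0713), irradiated PBS replicate 1 (0.0629), irradiated PBS replicate 2 (0.0569) or replicate 1 of both irradiated groups (0.051). Atp6v0d1, a subunit of the membrane sector, differed by 0.18 ± 0.08 and 0.20 ± 0.08 (adjusted p = 0.128 and 0.0816), and Atp6v1h by -0.07 ± 0.09 and -0.04 ± 0.09 (adjusted p = 0.606 and 0.806).

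Tfeb itself was not called in any comparison. It measured 10.3, 7.28, 13.3 and 7.57 CPM in sham PBS, 10.3, 9.45, 11.8 and 10.1 in sham LPS, 14.4, 14, 12.4 and 9.92 in irradiated PBS and 10.7, 9.49, 10.2 and 9.32 in irradiated LPS, with overlap between all groups. Its log2 difference after irradiation was 0.39 ± 0.19 with PBS (adjusted p = 0.169) and -0.07 ± 0.19 with LPS (adjusted p = 0.843).

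More lysosomal genes fell than rose after LPS. With sham irradiation LPS lowered 11 of 40 members and raised 4, while 29.6% of all genes were called (14.5% lower, 15.2% higher), and the median log2 fold change was -0.17 over the members and -0.01 over all genes. Groups did not overlap for 17 members (14 lower, 3 higher), against 29.9% of all genes. In irradiated rats 11 fell and 5 rose, against 31.4% of all genes (14.5% lower, 17% higher), with medians of -0.16 and -0.02. Groups did not overlap for 10 members (6 lower, 4 higher), against 32.3% of all genes. Without irradiated LPS replicate 4 10 members were called in irradiated rats, 5 lower and 5 higher, and without replicate 1 of both irradiated groups 13, 9 lower and 4 higher. Both LPS comparisons share no samples, and 7 of the 11 members lower in each (63.6%) were lower in the other, against 62.4% for all genes tested. With library totals as scaling the all-gene median in irradiated rats moved by -0.12 to -0.14, and 21 members were called lower and 3 higher.

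**Figure D3:**
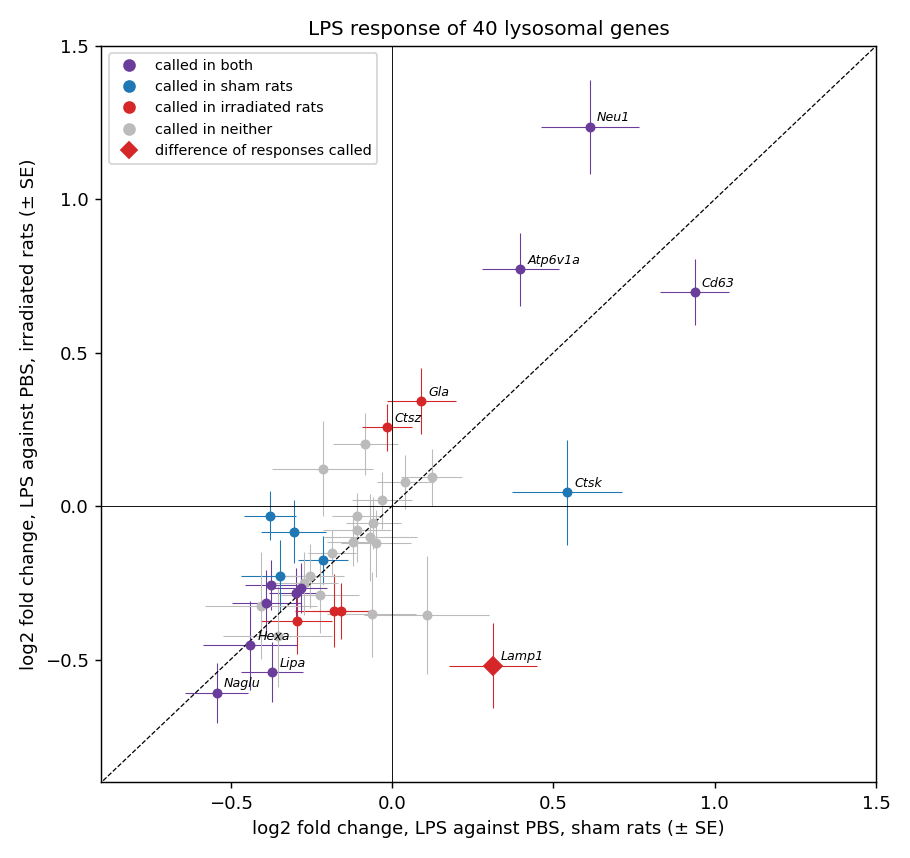
Log2 fold change of LPS against PBS in irradiated rats (vertical) against that in sham rats (horizontal) for the 40 tested members (bars, SE; n = 4 per group; colours, edgeR calls; dashed, equal response). Neu1, Cd63 and Atp6v1a lie high on both axes, Naglu, Hexa and Lipa low on both, and Lamp1 (diamond) lies at 0.31 in sham and -0.52 in irradiated rats.

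The 3 genes that rose with LPS in both settings were Cd63, Neu1 and Atp6v1a, whose sample values are given above. Cd63 rose by 0.94 ± 0.11 in sham (1.92-fold, adjusted p = 3.74e-06) and by 0.70 ± 0.11 in irradiated rats (adjusted p = 6.38e-05), without overlap in either. Neu1 rose by 0.61 ± 0.15 in sham (adjusted p = 0.00524) and by 1.24 ± 0.15 in irradiated rats (2.36-fold, adjusted p = 7.27e-06), again without overlap. Atp6v1a rose by 0.40 ± 0.12 in sham (adjusted p = 0.0172, lost without sham PBS replicate 2 at 0.0661 or sham LPS replicate 3 at 0.0786) and by 0.77 ± 0.12 in irradiated rats (adjusted p = 6.86e-05). These 3 genes were called higher in all 4 pairwise comparisons, as were 2.2% of all genes. The comparisons share samples in pairs, so that their calls are not independent.

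Naglu, an enzyme of heparan sulfate degradation, showed the deepest fall with LPS in sham and in irradiated rats. It measured 136, 124, 127 and 137 CPM in sham PBS, 94.4, 104, 78.2 and 82 in sham LPS, 114, 124, 141 and 118 in irradiated PBS and 75.5, 87.9, 77 and 85.3 in irradiated LPS. Every LPS library lay below every PBS library. Naglu fell by 0.54 ± 0.10 in sham (adjusted p = 0.000377) and by 0.61 ± 0.10 in irradiated rats (adjusted p = 9.96e-05). It was called in neither irradiation comparison (-0.07 ± 0.10 and -0.14 ± 0.10).

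Lipa fell by 0.37 ± 0.10 with LPS in sham and by 0.54 ± 0.10 in irradiated rats (adjusted p = 0.00712 and 0.000305), both without overlap. Gusb fell by 0.30 ± 0.08 and 0.28 ± 0.08 (adjusted p = 0.0115 and 0.0141), the second call being lost without irradiated PBS replicate 2 (adjusted p = 0.0644). Atp6v0d1 fell in both settings. It measured 215, 191, 197 and 199 CPM in sham PBS, 156, 160, 157 and 186 in sham LPS, 217, 240, 235 and 218 in irradiated PBS and 173, 203, 205 and 176 in irradiated LPS, and the LPS and PBS libraries did not overlap in either setting. The falls were 0.28 ± 0.08 and 0.27 ± 0.08 (adjusted p = 0.0133 and 0.0172). In irradiated rats the call of Atp6v0d1 was lost without irradiated PBS replicate 2 (adjusted p = 0.0596), irradiated LPS replicate 1 (0.0598) or irradiated LPS replicate 4 (0.0646). Leaving out replicate 1 of both irradiated groups lost it as well (adjusted p = 0.0514).

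Tpp1, Tmem175 and Hexa also fell with LPS in both settings. Tpp1 went from 1382, 1211, 1357 and 1374 CPM in sham PBS to 1139, 937, 1027 and 1005 in sham LPS (log2 -0.37 ± 0.08, adjusted p = 0.00187). In irradiated rats it went from 1066, 1027, 1129 and 930 to 870, 931, 886 and 784 CPM (log2 -0.26 ± 0.08, adjusted p = 0.0207), with overlap, and the call was lost without irradiated PBS replicate 3 (adjusted p = 0.0774) or irradiated LPS replicate 4 (0.0812). Leaving out replicate 1 of both irradiated groups lost this Tpp1 call too (adjusted p = 0.0779). Tmem175 went from 94.7, 94.1, 110 and 96.6 to 85, 81.5, 68.9 and 67 CPM in sham rats (log2 -0.39 ± 0.11, adjusted p = 0.0102). In irradiated rats its fall was 0.32 ± 0.11, from 61.8, 76.1, 75.2 and 70.7 to 48.1, 64.3, 58.8 and 56.8 CPM (adjusted p = 0.0317), and that call was lost without irradiated PBS replicates 2, 3 or 4 or irradiated LPS replicates 1 or 4, singly (adjusted p = 0.0572 to 0.108). No filter on low counts (adjusted p = 0.0647) and leaving out replicate 1 of both irradiated groups (0.0633) lost it too. For Tmem175 the sham groups were apart and the irradiated groups overlapped.

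Hexa fell by 0.44 ± 0.15 with LPS in sham and by 0.45 ± 0.15 in irradiated rats (adjusted p = 0.0297 and 0.0235), with overlap in both. Its sham call was lost without sham PBS replicates 1, 2 or 3 or sham LPS replicate 3, singly (adjusted p = 0.0545 to 0.0868), and its irradiated call without irradiated PBS replicates 2 or 3 or irradiated LPS replicates 1, 2 or 4, singly (adjusted p = 0.0533 to 0.0833). Hexa, Lipa, Tmem175 and Tpp1 were the 4 members called lower in all 4 pairwise comparisons, as were 1.97% of all genes.

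Several members were called with LPS in only 1 setting, and for none of these except Lamp1 was the difference between settings itself called. In sham rats Lgmn fell by 0.38 ± 0.08, from the values given above to 5975, 5868, 7000 and 6013 CPM (adjusted p = 0.00164), against -0.03 ± 0.08 in irradiated rats (4804, 5625, 5572 and 5001 CPM with LPS, adjusted p = 0.815). The difference of the 2 responses of Lgmn was 0.35 ± 0.11 (95% interval 0.12 to 0.57, adjusted p = 0.185). Ctsk rose by 0.54 ± 0.17 in sham rats (adjusted p = 0.0219), with overlap, against 0.05 ± 0.17 in irradiated rats, and the call was lost without sham PBS replicates 1 or 2 or sham LPS replicates 3 or 4, singly (adjusted p = 0.0533 to 0.105). Ctsc, Idua and Ppt1 fell in sham rats by 0.21 ± 0.08, 0.35 ± 0.12 and 0.30 ± 0.10 (adjusted p = 0.0471, 0.0342 and 0.0302). Those calls were lost when any of 10 libraries was left out for Ctsc (all of sham PBS 1 to 3 and sham LPS 1 to 4, irradiated PBS 3 and 4, irradiated LPS 4; adjusted p = 0.0504 to 0.135), any of 5 for Idua (sham PBS 2 to 4, sham LPS 2 and 3; 0.0681 to 0.123) and any of 4 for Ppt1 (sham PBS 1 and 4, sham LPS 1 and 4; 0.0513 to 0.1).

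In irradiated rats Ctsf fell with LPS by 0.34 ± 0.09 without overlap (adjusted p = 0.0072), and Ctso by 0.37 ± 0.11 with overlap (adjusted p = 0.0148). Ctso was not called without irradiated PBS replicate 3 (adjusted p = 0.0543), irradiated LPS replicate 1 (0.0533) or irradiated LPS replicate 4 (0.0601). In sham rats Ctso measured 483, 413, 472 and 454 CPM with PBS and 363, 357, 359 and 406 with LPS, without overlap, a log2 value of -0.30 ± 0.11 that just missed the threshold (adjusted p = 0.0513) and was called under 14 of 26 alternatives (adjusted p = 0.012 to 0.121 over all 26). Gaa, which degrades glycogen, fell by 0.34 ± 0.12 (adjusted p = 0.037), a call lost without irradiated PBS replicates 2 or 3 or irradiated LPS replicates 1 or 4, singly (adjusted p = 0.0991 to 0.128). The Gaa call was also lost without replicate 1 of both irradiated groups (adjusted p = 0.077). Gla rose by 0.34 ± 0.11 (90.7, 85.9, 95.7 and 85.6 CPM with LPS, adjusted p = 0.0204), and Ctsz by 0.26 ± 0.08 (from 2121, 2127, 2250 and 2088 CPM, adjusted p = 0.0159). The Gla call was lost without irradiated PBS replicate 1 (adjusted p = 0.0661), irradiated LPS replicate 3 (0.0565) or replicate 1 of both irradiated groups (0.088). The Ctsz call was lost without irradiated LPS replicate 4 (0.0526). With library totals as scaling both calls were lost (adjusted p = 0.0826 for Gla and 0.0964 for Ctsz).

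The difference between the LPS responses of irradiated and sham rats was called for 0 members in the positive and 1 in the negative direction, Lamp1, against 1.26% of all genes (0.61% positive, 0.647% negative). Over the members the median difference was 0.02, and over all genes 0.01. Lamp1 measured 192, 218, 258 and 275 CPM in sham LPS and 120, 130, 158 and 121 in irradiated LPS, next to 181, 205, 192 and 181 in sham PBS and 160, 156, 240 and 203 in irradiated PBS. Irradiated LPS lay below both sham groups and overlapped with irradiated PBS by its highest library. The log2 response to LPS was 0.31 ± 0.14 in sham (adjusted p = 0.0957) and -0.52 ± 0.14 in irradiated rats (adjusted p = 0.00719), and irradiation lowered Lamp1 by 0.83 ± 0.14 among rats given LPS (adjusted p = 0.000159). The difference was -0.83 ± 0.19 (95% interval -1.21 to -0.45, adjusted p = 0.0419). It kept its sign under all 25 alternatives (-0.93 to -0.70) and lost its call under 15 of them, 12 of which left out a single library (all except sham LPS 1, irradiated PBS 1 and 2 and irradiated LPS 3; adjusted p up to 0.0958).

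For the other 39 tested members the difference was not called. Its largest positive value was that of Neu1, 0.62 ± 0.21 (95% interval 0.20 to 1.04, adjusted p = 0.215), followed by Atp6v1a with 0.38 ± 0.17 (0.05 to 0.70, adjusted p = 0.38). Ctsk had -0.50 ± 0.24 (-0.97 to -0.02, adjusted p = 0.439) and Tfeb -0.46 ± 0.27 (adjusted p = 0.571). These intervals are not adjusted for the number of genes, and they do not show that the responses were alike.

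**Figure D4:**
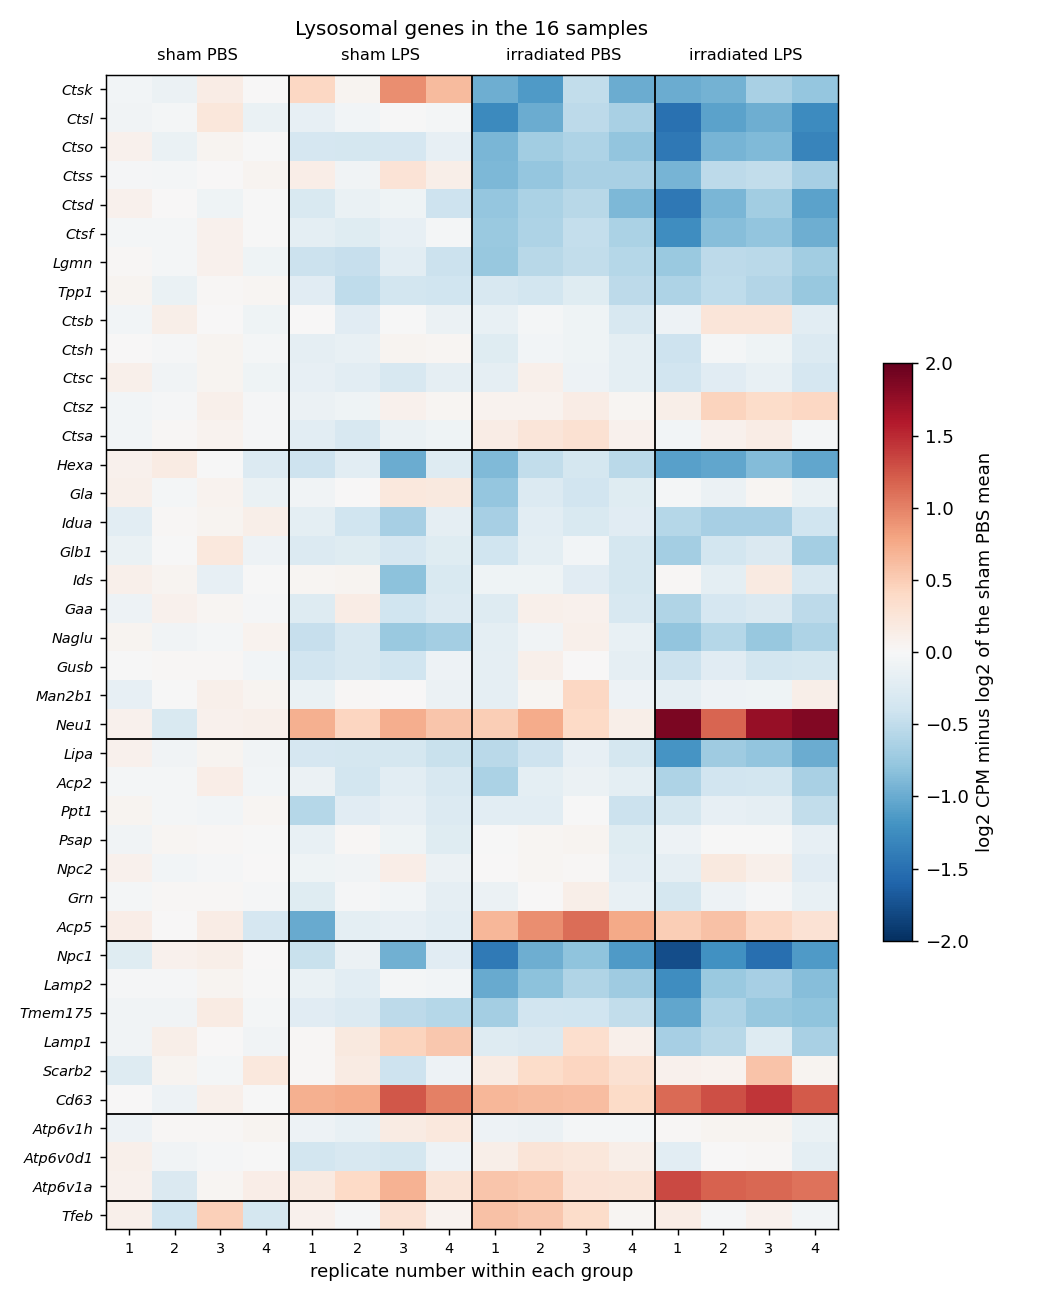
Log2 CPM of the 40 tested members in each of the 16 libraries, minus the log2 of the sham PBS mean of the same gene (colour scale in log2 units; rows ordered by role). Irradiated columns are blue from Ctsk to Tpp1 and for Npc1 and Lamp2, and the Neu1, Cd63 and Atp6v1a rows are darkest red with LPS in irradiated rats.

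A set of 12 of the 40 tested members (30%, against 45.6% of all genes) was called in none of the 4 pairwise comparisons: Ctsb, Ctsh, Glb1, Ids, Man2b1, Npc2, Psap, Grn, Acp2, Scarb2, Atp6v1h and Tfeb. Psap had 7985 ± 256 CPM in sham PBS and 7607 ± 398 in irradiated LPS (SD, n = 4). Npc2 stayed between 3315 and 4438 CPM in all 16 libraries and Grn between 1844 and 2536.

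Other lysosomal genes, from lists that hold no member, moved in both directions. Of 27 further hydrolases 6 rose and 6 fell after irradiation with PBS, 5 rose and 10 fell with LPS, and with LPS 0 rose and 9 fell in sham and 0 rose and 14 fell in irradiated rats. In that order 44.4%, 55.6%, 33.3% and 51.9% were called, against 21.4%, 27.7%, 29.6% and 31.4% of all genes. The ganglioside activator Gm2a rose after irradiation by 0.64 ± 0.08 with PBS and 0.78 ± 0.08 with LPS (adjusted p = 8.42e-06 and 5.88e-07). The lysosomal phospholipase Pla2g15 fell with LPS from 432, 406, 433 and 429 to 172, 143, 124 and 134 CPM in sham rats (log2 -1.57 ± 0.10, adjusted p = 3.85e-09), and by 0.96 ± 0.10 in irradiated rats (adjusted p = 8.06e-07).

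Of 20 further membrane proteins tested, 3 rose and 4 fell after irradiation with PBS and 3 rose and 4 fell with LPS. That is 35% in each, against 21.4% and 27.7% of all genes. Cd68, a heavily glycosylated macrophage relative of the LAMP proteins, rose from 113, 123, 124 and 124 CPM in sham PBS to 619, 577, 500 and 438 in irradiated PBS (log2 2.14 ± 0.12, adjusted p = 3.34e-09), and by 2.33 ± 0.12 with LPS (adjusted p = 7.68e-10). The opposite signs of Cd68 and of Lamp2 were seen in every irradiated library. Of the 10 further pump subunits tested, 1 rose and 1 fell after irradiation with PBS (20%, against 21.4% of all genes), and 7 rose and 2 fell with LPS (90%, against 27.7%). LPS itself raised 3 of them and lowered 1 in sham rats (40%, against 29.6% of all genes). In irradiated rats it raised 6 and lowered 0 (60%, against 31.4%). There Atp6v0a1 rose by 1.51 ± 0.14, Atp6v1c1 by 1.43 ± 0.15 and Atp6v0c by 0.73 ± 0.08 (adjusted p = 3.26e-07, 9.27e-07 and 3.12e-06).

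Among cathepsin inhibitors, cystatin C (Cst3) fell after irradiation from 51271, 45568, 49240 and 50312 CPM to 20213, 21996, 25623 and 24548 with PBS (log2 -1.09 ± 0.10, adjusted p = 3.73e-07) and by 1.23 ± 0.10 with LPS (adjusted p = 6.28e-08). Cst7 (cystatin F) rose by 3.06 ± 0.50 and 3.07 ± 0.45 (adjusted p = 0.000448 and 0.000118), from 0.874 to 2.13 CPM in sham PBS to 8.58 to 16.6 in irradiated PBS, and Cstb rose by 0.91 ± 0.10 and 1.11 ± 0.10 (adjusted p = 4.17e-06 and 2.98e-07). Of the receptors that sort hydrolases to the lysosome, M6pr fell by 0.43 ± 0.09 and 0.38 ± 0.09 (adjusted p = 0.00139 and 0.00246) and Sort1 by 0.73 ± 0.12 and 1.08 ± 0.12 (adjusted p = 0.000204 and 2e-06), while Igf2r rose by 2.87 ± 0.37 and 3.51 ± 0.39 (adjusted p = 1.93e-05 and 2.16e-06). Of the 14 tested genes for MiT factors and mTORC1 control, 4 rose and 0 fell after irradiation with PBS and 5 rose and 1 fell with LPS, while LPS raised 2 and lowered 4 in sham rats and raised 2 and lowered 5 in irradiated rats. In that order 28.6%, 42.9%, 42.9% and 50% were called, against 21.4%, 27.7%, 29.6% and 31.4% of all genes. Of the 4 calls after irradiation with PBS, that of Lamtor2 was lost under 12 of 26 alternatives, 10 of which left out 1 library (highest adjusted p = 0.142, without irradiated PBS replicate 1). The call of Rragc was lost under 4, without sham PBS replicate 2, irradiated PBS replicates 1 or 4 or replicate 1 of both irradiated groups (highest adjusted p = 0.0636). Tfec, a relative of Tfeb, rose by 1.84 ± 0.32 (adjusted p = 0.000512), with 1.09 to 5.06 CPM in sham PBS and 8.61 to 12.8 in irradiated PBS.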

How the data were processed

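The authors deposited unnormalised read counts for each Ensembl gene, 1 file per sample. The submitters' processing notes name the build mRatBN7.2 and the tools HTSeq 2.0.2, fastp 0.23.2 and FastQC 0.11.9 (aligner, annotation release and strand: not given in the sources used here). A second deposited table with counts summed over symbols did not differ in any of 349472 cells from sums of the sample files.

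After filterByExpr, a robust quasi-likelihood model of edgeR 4.0.16 (R 4.3.3) with TMM scaling was fitted over all 16 samples, with the 4 groups as coefficients. P-values were two-sided and Benjamini-Hochberg adjusted over all 13608 genes tested, and genes were called under 0.05. The common biological coefficient of variation was 0.289. The SE is the fold change divided by the root of the F statistic, and CPM were scaled with TMM factors. The 95% intervals are the fold change ± 1.96 SE. This normal quantile leaves out the limited degrees of freedom of the fit and gives somewhat narrow intervals. No 2 replicates among 24 pairs were so alike that they could be repeats of 1 library. Floors and counts cover counting error only. The procedure was tested on simulated counts with known changes.

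Members were given with every sample's CPM where they were among the 6 largest called fold changes of either direction in a comparison, were called for the difference of LPS responses, or belonged to a fixed set (Lamp1, Ctsd, Ctsb, Ctss, Tfeb, Atp6v0d1, Atp6v0d2, Ctsk, Acp5). From each list of other lysosomal genes up to 4 called genes per comparison with the smallest p could be named, and Cst3 and Cst7 always. Of 224 listed genes 13 were not matched, and the results of 2 genes are not reported here, although list counts and sums include them. Members and lists were chosen with earlier results of these data known. Alternatives were library totals or RLE factors for scaling, DESeq2 1.42.0, limma 3.58.1 (voom with sample weights), no filter on low counts, no robust estimation, a replicate block, only the groups compared, counts summed over symbols, and leaving out each library or replicate 1 of both irradiated groups. Promoter sequences are from RefSeq (GRCr8), a build other than that of the counts.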

Additional observations from a re-analysis of the deposited data

Results flagged for a closer look

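A library that stood apart from the other 3 of its group was looked for in 160 combinations of gene and group, as a gap to the nearest library, given as a share of the group's range, above Dixon's 95% critical value for 4 samples. This held in 13, and chance gives about 1 in 20. In sham PBS, replicate 2 was lowest for Neu1 (gap 0.954 of the range, 48.4 CPM against 63.3 to 64.1) and for Tpp1 (0.865, 1211 against 1357 to 1382), and replicate 3 was highest for Acp2 (0.902, 230 against 203 to 205) and Tmem175 (0.841, 110 against 94.1 to 96.6). In sham LPS, replicate 4 was highest for Ctso (0.878, 406 CPM against 357 to 363) and Atp6v0d1 (0.870, 186 against 156 to 160), replicate 3 was highest for Lgmn (0.861, 7000 against 5868 to 6013) and replicate 1 was lowest for Acp5 (0.937, 12.4 against 21.7 to 22.5). In irradiated PBS, replicate 4 was lowest for Npc2 (0.844, 3337 CPM against 3885 to 3996) and Cd63 (0.844, 460 against 541 to 557), and replicate 1 was lowest for Acp2 (0.855, 136 against 184 to 194). In irradiated LPS, replicate 3 was highest for Scarb2 (0.949, 49.6 CPM against 34.9 to 35.5) and replicate 4 was lowest for Atp6v1h (0.842, 84.7 against 95.3 to 97.4).

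The LPS response differed between irradiated and sham rats, by the test of the difference itself, for Lamp1 among the members (log2 difference -0.83 ± 0.19, edgeR adjusted p = 0.0419). Among the other lysosomal genes it differed for 3 of 80 tested (3.75%, against 1.26% of all genes), of which 2 are described. For the phospholipase Pla2g15 the difference was 0.60 ± 0.14 (adjusted p = 0.0397), a fall of 1.57 in sham and of 0.96 in irradiated rats on the log2 scale. For the transcription factor Mitf, a relative of Tfeb, it was 0.95 ± 0.22 (adjusted p = 0.0371), with a fall of 0.98 in sham rats and a value of -0.02 in irradiated rats. The 3 calls described here kept their sign under all 25 alternatives run but were lost under 15 (Lamp1), 17 (Pla2g15) and 12 (Mitf) of them, most of which left out 1 library (highest adjusted p = 0.0958, 0.128 and 0.0886).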

How the results depend on the processing

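Of 71 calls of members, 44 kept direction and call under every alternative run (LPS in sham rats, 9 of 15; irradiation with PBS, 12 of 19; LPS in irradiated rats, 7 of 16; irradiation with LPS, 16 of 20; the difference of LPS responses, 0 of 1), and 0 results reversed. Leaving out 1 library gave 10 to 18, 16 to 19, 10 to 20, 17 to 21 and 0 to 1 members called, in that order. The lowest count for LPS in irradiated rats, 10, was that without irradiated LPS replicate 4. Some calls were lost under settings not named beside them above. For irradiation with LPS, a fit of only the groups compared lost Ctsa, Cd63, Lgmn and Tpp1 (adjusted p = 0.0659 to 0.0816). There, leaving out replicate 1 of both irradiated groups lost Lgmn (0.0755) and Tpp1 (0.0814). For LPS in sham rats, the fit of only the groups compared lost Hexa (0.0724) and no filter lost Ctsc (0.0664). For the difference, limma voom, the fit without robust estimation and the fit without replicate 1 of both irradiated groups called 0 members. Over all genes the difference was called for 171 genes, for 438 by DESeq2, for 98 without replicate 1 of both irradiated groups and for 103 to 191 with 1 library left out.

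Whether the replicate numbers of the titles pair the samples is not stated in the labels, and the main model does not pair them. Of 24 same-numbered pairs, 8 had deviations correlated over 0.1 (r from -0.05 to 0.39). For 14 of 16 samples the best match in another group had the same number, a hint of pairing from the data and not the design. With the replicate block 20, 21, 19, 21 and 1 members were called, including every call without the block and Glb1 in all 4 pairwise comparisons (adjusted p = 0.023 to 0.0412), and the difference of Lamp1 was -0.81 (adjusted p = 0.0153). With library totals as scaling 76.3% of the called genes were higher after irradiation with PBS against 53.7% with TMM factors, and 39.2% against 54% for LPS in irradiated rats. After irradiation with PBS this scaling also called Ctsa, Ctsz, Scarb2, Atp6v0d1 and Tfeb. All tested members had at least 146 counts per library.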
